A study of Mus musculus with 12 samples.

Results

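Open chromatin of neurons given a Rab5 antisense oligonucleotide was set against that of neurons given a LRRK2 inhibitor, with alpha-synuclein fibrils present in both. The assay was ATAC-seq, in which Tn5 transposase cuts accessible DNA. The 3 libraries of PFF + Rab5 ASO were compared with the 3 of PFF + MLi-2, out of 12 libraries in the series (4 groups of 3, with PBS and PFF alone as the others). All came from primary cortical neurons of wild-type C57BL/6 embryos at embryonic day 18 and carry the batch label 1. Per the study's methods the fibrils (PFF, pre-formed fibrils) were present for 7 days in both groups, MLi-2 for the last 5 days and the ASO, directed at the Rab5a and Rab5b transcripts, for the last 3 days. Peaks of the 6 lists that shared 1 bp or more were joined into 230666 regions, and the same step over all 12 lists gave 263562. Of the 230666 regions, 80207 had a peak in all 6 libraries, 8581 had one in 3 of 3 Rab5 ASO and 0 of 3 MLi-2 libraries (hereafter Rab5 ASO only), and 2458 showed the reverse (MLi-2 only).

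LRRK2 is a large kinase linked to Parkinson's disease that phosphorylates several Rab GTPases, and MLi-2 blocks its kinase activity. Rab5 is the GTPase that marks early endosomes and recruits the effectors of their tethering and fusion, and an antisense oligonucleotide lowers the transcript it pairs with. A peak in ATAC-seq marks a promoter, an enhancer or another site where bound factors keep nucleosomes away, and short sequence motifs near the summit of a peak are the places where such factors can bind. AP-1, a dimer of Fos and Jun family proteins that responds to neuronal activity and stress, binds TGANTCA with C or G as the middle base. The counts of TGANTCA here take any middle base and were not split by it, so AP-1-type names the looser string. RFX factors bind the X-box, an inverted repeat whose arm reads GTTGCNA. Homeodomain factors share the core TAATTA.

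None of the 12 libraries is labelled as a control oligonucleotide or a solvent control, and the treatments lasted for different times, so agent, target and duration cannot be told apart. In bulk libraries, fewer cells with an open site and less opening per cell cannot be told apart either. The labels call the libraries replicates, the study's methods describe 3 independent experiments per group, and p-values measure the spread between them. By the methods each pregnancy was 1 biological replicate whose cultures were assigned to the groups at random, so libraries of different groups may share a pregnancy, and no label says which do. The ASO acts on RNA, so the peak at a Rab5 promoter does not check the knockdown. The paper reports lower Rab5a and Rab5b mRNA and protein with these oligonucleotides, by RT-qPCR and Western blot.

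The windows below were chosen because they are among the strongest regions of their kind that hold the motif on which the comparison turns, a rule applied after the values were seen. Each is 201 bases centred on the strongest summit, on the plus strand of GRCm38.p6 from RefSeq. Capitals mark matches to GTTGCNA, whose other strand reads TNGCAAC, or to TGANTCA, which reads the same on both strands. The first set holds Rab5 ASO only regions, at chr14:56844536-56844736 between genes near Zmym5, at chr7:90120349-90120549 between genes 9667 bp from the start site of Picalm, and at chr10:20089062-20089262 in an intron of Map3k5.
Zmym5: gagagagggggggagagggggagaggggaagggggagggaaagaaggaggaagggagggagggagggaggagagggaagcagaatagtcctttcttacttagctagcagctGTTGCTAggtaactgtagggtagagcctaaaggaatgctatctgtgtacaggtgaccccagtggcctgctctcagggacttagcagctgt
Picalm: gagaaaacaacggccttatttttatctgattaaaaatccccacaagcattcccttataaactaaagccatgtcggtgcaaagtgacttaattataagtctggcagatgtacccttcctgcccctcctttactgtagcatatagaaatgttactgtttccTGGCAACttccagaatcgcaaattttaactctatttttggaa
Map3k5: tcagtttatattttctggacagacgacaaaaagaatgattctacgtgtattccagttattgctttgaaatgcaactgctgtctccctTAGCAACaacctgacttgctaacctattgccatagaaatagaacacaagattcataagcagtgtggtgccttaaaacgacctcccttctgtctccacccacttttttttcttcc

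The second set holds MLi-2 only regions with TGANTCA. All of them lie between genes, at chr3:21477423-21477623 (nearest protein-coding start site Tbl1xr1, 599069 bp away), chr1:33330006-33330206 (Prim2, 291916 bp) and chr1:144604142-144604342 (Rgs21, 36450 bp).
Tbl1xr1: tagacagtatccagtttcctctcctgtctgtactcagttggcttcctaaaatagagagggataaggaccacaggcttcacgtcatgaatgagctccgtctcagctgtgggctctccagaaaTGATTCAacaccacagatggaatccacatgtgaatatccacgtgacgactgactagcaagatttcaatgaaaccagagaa
Prim2: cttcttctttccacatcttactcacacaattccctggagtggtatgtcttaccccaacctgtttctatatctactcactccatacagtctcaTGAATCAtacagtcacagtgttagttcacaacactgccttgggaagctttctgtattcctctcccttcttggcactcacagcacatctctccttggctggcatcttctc
Rgs21: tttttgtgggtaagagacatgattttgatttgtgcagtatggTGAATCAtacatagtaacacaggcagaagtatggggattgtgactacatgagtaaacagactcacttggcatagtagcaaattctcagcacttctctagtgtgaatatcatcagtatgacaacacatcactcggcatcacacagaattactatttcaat

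The third set holds regions with a peak in all 6 libraries whose height differed. The windows at chr8:40415520-40415720 (between genes, 8094 bp from the start site of Zdhhc2) and chr6:36936941-36937141 (at the start site of 1700111E14Rik) were higher with the Rab5 ASO, and chr8:57013896-57014096 (between genes, 306759 bp from the start site of Hand2) was lower.
Zdhhc2: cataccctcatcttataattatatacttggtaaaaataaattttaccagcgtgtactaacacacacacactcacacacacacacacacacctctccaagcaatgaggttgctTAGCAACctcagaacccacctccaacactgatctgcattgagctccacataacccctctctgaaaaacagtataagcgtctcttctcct
1700111E14Rik: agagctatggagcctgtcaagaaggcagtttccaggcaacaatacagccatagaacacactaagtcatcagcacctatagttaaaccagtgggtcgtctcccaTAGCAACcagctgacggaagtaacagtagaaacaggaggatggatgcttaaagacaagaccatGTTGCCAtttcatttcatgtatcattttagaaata
Hand2: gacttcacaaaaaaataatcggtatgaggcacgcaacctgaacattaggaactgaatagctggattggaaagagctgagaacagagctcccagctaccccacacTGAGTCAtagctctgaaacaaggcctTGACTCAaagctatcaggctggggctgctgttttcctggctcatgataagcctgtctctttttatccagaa

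Counted along the plus strand, the GTTGCNA match nearest the summit was centred at 14 bp in the Zmym5 window, 62 bp in Picalm, -10 bp in Map3k5, 15 bp in Zdhhc2 and 6 bp in 1700111E14Rik. The TGANTCA match was at 24 bp in the Tbl1xr1 window, -5 bp in Prim2, -55 bp in Rgs21 and 7 bp in Hand2. Its middle base was T in Tbl1xr1, A in Prim2 and Rgs21, and G or C in the matches of Hand2. A match is a string of letters and does not show that a factor was bound there.

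The Rab5 ASO libraries held more and narrower peaks than the MLi-2 libraries. They had 184564, 167748 and 162621 peaks (mean 171644 ± 11479 SD, n = 3), and the MLi-2 libraries had 145902, 147867 and 145384 (146384 ± 1310). Every Rab5 ASO library lay above every MLi-2 library, while the PBS libraries (137299 to 180875) spanned both. The PFF libraries (151801 to 172262) lay above every MLi-2 library and overlapped the Rab5 ASO libraries. Median peak width was 118 ± 6.00 bp with the Rab5 ASO and 132 ± 2.52 bp with MLi-2, and the peaks covered 29.0 ± 2.32 Mb and 26.3 ± 0.230 Mb. The smallest peak was 53 to 59 bp wide against 63 bp. Relative depth, the background pileup divided by that smallest width and scaled to a mean of 1 over the series, was 1.05 to 1.31 with the Rab5 ASO and 0.957 to 1.03 with MLi-2. It takes the smallest width for the fragment length of the peak caller, which no source states. The background pileup itself overlapped between the groups, at 2.11, 1.81 and 2.03 with the Rab5 ASO and 1.88, 1.77 and 1.90 with MLi-2. Each of these 5 differences gave an exact two-sided permutation p of 0.10, adjusted p = 0.10, the smallest that 3 libraries against 3 allow. Depth and width move with the groups, and their part in the results was not tested.

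The share of peaks with GTTGCNA within 100 bp of the summit was higher in every Rab5 ASO library than in any other library of the series. It was 12.4%, 12.5% and 12.3% with the Rab5 ASO (mean 12.4% ± 0.0542 SD, n = 3) and 11.0%, 10.8% and 10.7% with MLi-2 (10.8% ± 0.192). The PBS libraries held 10.6 to 10.9% and the PFF libraries 10.6 to 10.7%. The groups did not overlap, and the gap of 1.58 points exceeded the spread within either. The shortest of the 12 lists had 137299 peaks, and the same held for that many of the strongest peaks of each list (13.2% ± 0.220 against 11.1% ± 0.190) and for windows of 40 to 50% GC (15.3% ± 0.136 against 13.3% ± 0.162).

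TGANTCA went the other way. Its share was 8.82%, 8.29% and 8.58% in the Rab5 ASO libraries (8.56% ± 0.267, n = 3) and 9.70%, 9.20% and 10.9% in the MLi-2 libraries (9.95% ± 0.899). The Rab5 ASO libraries lay below all others, since PBS ranged from 9.48 to 10.6% and PFF from 10.2 to 11.0%. TAATTA was found in 8.0 to 8.47% of Rab5 ASO peaks and 6.20 to 6.56% of MLi-2 peaks. CACGTG, the E-box of the TFEB family of lysosomal regulators, did not separate the groups (3.74% ± 0.0278 against 3.79% ± 0.0578, exact permutation p = 0.300, n = 3). Each of the first 3 motifs gave an exact permutation p of 0.10 (n = 3), the smallest possible, so no difference between libraries could pass 0.05. In all, 17 library measures were compared. The Rab5 ASO peaks were also poorer in GC (50.1 to 50.5% against 51.6 to 52.0%). Base composition moved with the groups, and its part in the motif shares of whole libraries was examined only through the windows of 40 to 50% GC given above.

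**Figure D1:**
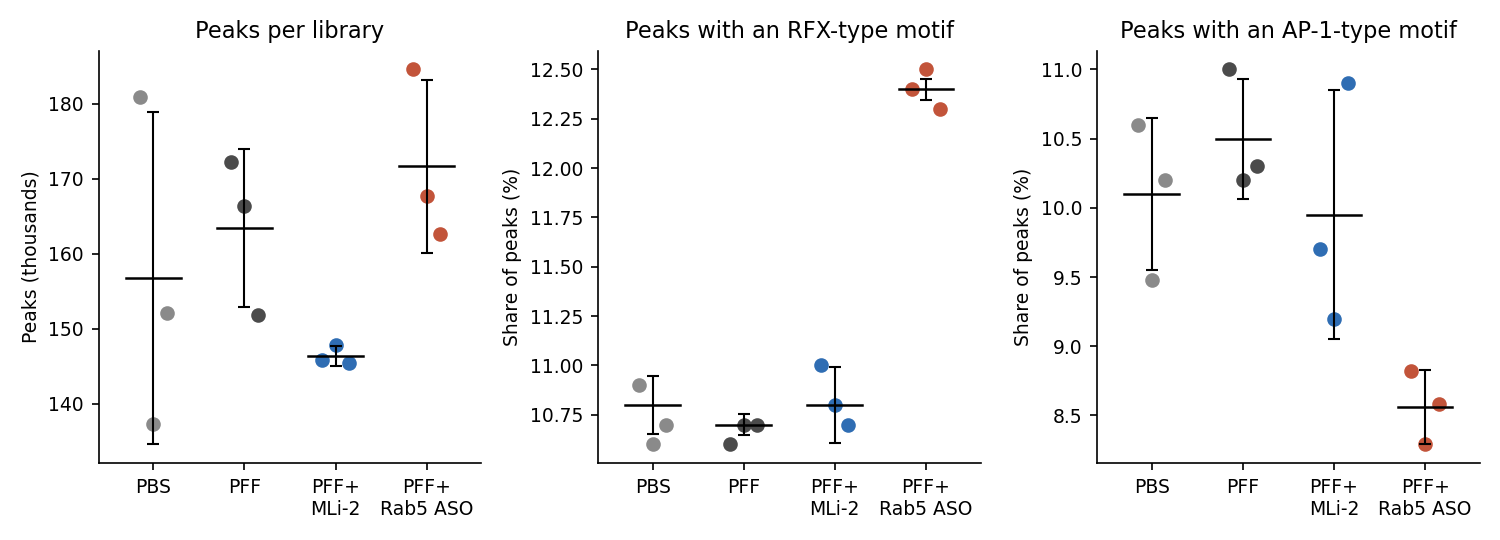
Peaks per library (in units of 1000) and the share of peaks (%) with the RFX-type motif GTTGCNA or the AP-1-type motif TGANTCA within 100 bp of the summit, for the 4 groups. Points are libraries, lines are means and bars are SD (n = 3), the vertical axes do not start at 0, and the Rab5 ASO libraries stand above all others in the middle panel (12.3 to 12.5%) and below all others in the right panel (8.29 to 8.82%).

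Regions present in 1 group and absent from the other were mostly distal. The 8581 Rab5 ASO only regions were 3.72% of all regions and the 2458 MLi-2 only regions 1.07%, so that 77.7% of the regions called in 3 against 0 belonged to the Rab5 ASO. The split moved with the number of peaks per list. When the 145384 strongest peaks of every list were used, the counts became 6354 and 4703 (2.97% and 2.2% of regions), with 57.5% on the Rab5 ASO side. Just outside the threshold, 12611 regions had a peak in 2 of 3 Rab5 ASO and 0 MLi-2 libraries and 7601 in 3 and 1. In the reverse direction these numbers were 5738 and 3653. The called regions were weak: the mean percentile of their fold enrichment within their own lists had a median of 41.7 for Rab5 ASO only and 35 for MLi-2 only, against 70.8 for regions found in all 6 libraries.

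Only 6.55% of Rab5 ASO only regions (95% Wilson interval 6.05 to 7.09) and 9.85% of MLi-2 only regions (8.73 to 11.1) lay within 1000 bp of a transcription start site, against 26.9% of regions found in all 6. With equal numbers of peaks these shares were 4.60% and 20.8%, so the promoter share of the MLi-2 only regions depended on how many peaks each list contributed. Rab5 ASO only regions lay between genes in 45.2% and in introns in 44.9%, and MLi-2 only regions in 35.7% and 50%. The median distance to a start site was 27797 bp for Rab5 ASO only and 15914 bp for MLi-2 only regions, and 36.2% and 21.3% lay more than 50000 bp from any start site. The regions also differed in base composition, with a median GC share of 42.3% for Rab5 ASO only, 48.8% for MLi-2 only and 51.2% for regions in all 6. Of regions under 35% GC, 11.9% were Rab5 ASO only and 0.435% MLi-2 only, and between 55 and 65% GC the shares were 1.06% and 0.997%. By chromosome, from 2.97% (chromosome 17) to 4.30% (chromosome 3) of autosomal regions were Rab5 ASO only. Regions are not replicates, and the intervals cover counting error only.

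**Figure D2:**
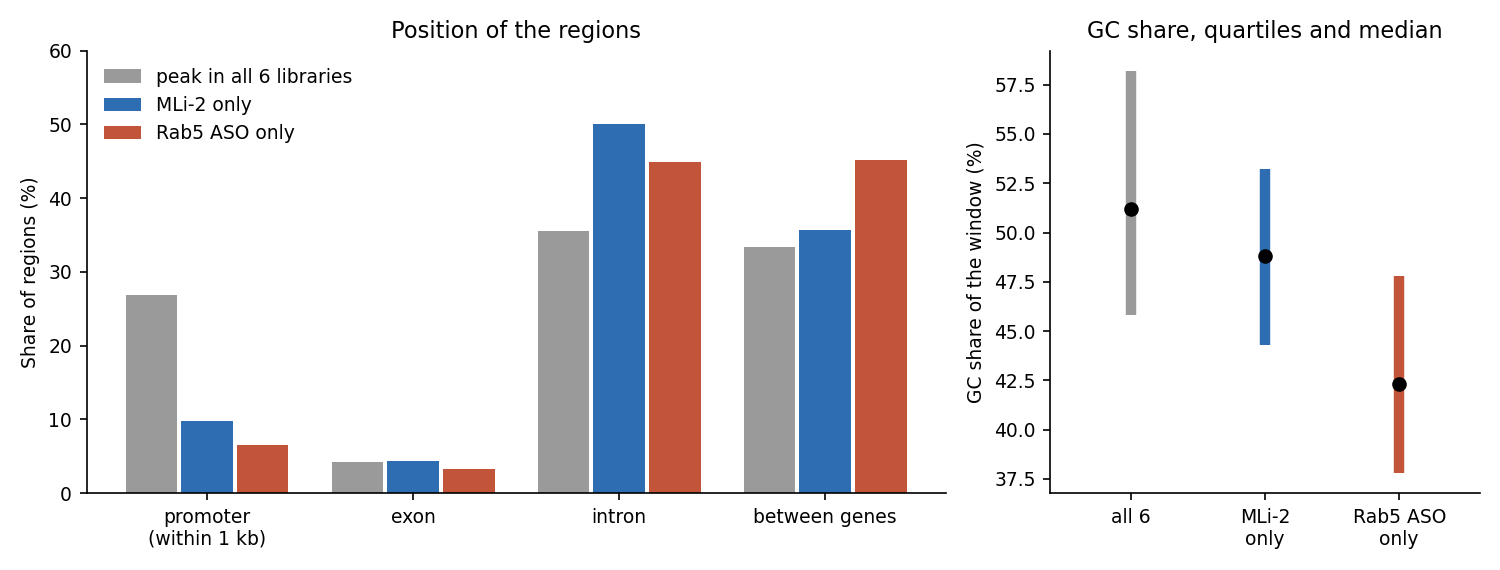
Left, share of regions (%) by position for regions with a peak in all 6 libraries, MLi-2 only and Rab5 ASO only regions. Right, GC share (%) of the 201 base window, where bars span the quartiles and points are medians (51.2, 48.8 and 42.3%), and the called regions lie away from promoters with the Rab5 ASO only regions poorest in GC.

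The called regions differed in motif content. They were chosen as exclusive to 1 group, so a wider gap than between whole libraries, which share most strong peaks, is built into the choice. GTTGCNA was within 100 bp of the summit in 1743 of 8581 Rab5 ASO only regions (20.3%, 95% interval 19.5 to 21.2) and in 161 of 2458 MLi-2 only regions (6.55%, 5.64 to 7.60), beside 11.7% of all regions. TGANTCA was in 504 of 2458 MLi-2 only regions (20.5%, 19 to 22.1) and in 656 of 8581 Rab5 ASO only regions (7.64%, 7.1 to 8.23), beside 10.1% of all regions. TAATTA stood at 16.3% of Rab5 ASO only and 4.88% of MLi-2 only regions (8.04% of all), and TATTTATA, a core of MEF2 sites, at 4.29% and 1.10% (2.07% of all). At 30 to 40% GC the TATTTATA shares were 6.99% (6.14 to 7.94), 5.29% (2.98 to 9.22) and 6.34%, with overlapping intervals for the called sets. CAGATG, an E-box read by proneural factors, was in 19.1% and 25.2% (21.5% of all). GTTGCNA and TAATTA were added after the data were seen, and the other motifs were listed earlier.

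Among windows of 40 to 50% GC, where base composition differs less, GTTGCNA was in 22.4% of Rab5 ASO only, 6.59% of MLi-2 only and 13.9% of all regions. TGANTCA there was in 8.11%, 24.9% and 12.3%, and TAATTA in 12.1%, 5.66% and 9.15%. Read from the motif, 6.46% of regions with GTTGCNA were Rab5 ASO only against 3.36% of those without, and 2.17% of regions with TGANTCA were MLi-2 only against 0.942% of those without.

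The sets differed in GTTGCNA and TGANTCA near the summit and little away from it, while TAATTA differed at both distances. GTTGCNA was centred within 50 bp of the summit in 15.3% of Rab5 ASO only regions, 3.86% of MLi-2 only regions and 8.56% of regions in all 6, whereas at 150 to 250 bp from the summit the shares were 6.05%, 5.78% and 5.79%. TGANTCA was within 50 bp in 14.8% of MLi-2 only, 4.30% of Rab5 ASO only and 5.32% of regions in all 6, and at 150 to 250 bp in 7.00%, 6.30% and 5.40%. TAATTA was within 50 bp in 8.20% of Rab5 ASO only and 2.2% of MLi-2 only regions, and at 150 to 250 bp in 10.9% and 5.94%. The closed X-box, GTTGCNA followed by TNGCAAC with 0 bases between, was in 24 of 8581 Rab5 ASO only regions (0.280%) and 150 of 80207 regions in all 6 (0.187%). It was in 0 of 2458 MLi-2 only regions, which allows a share of up to 0.122%.

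**Figure D3:**
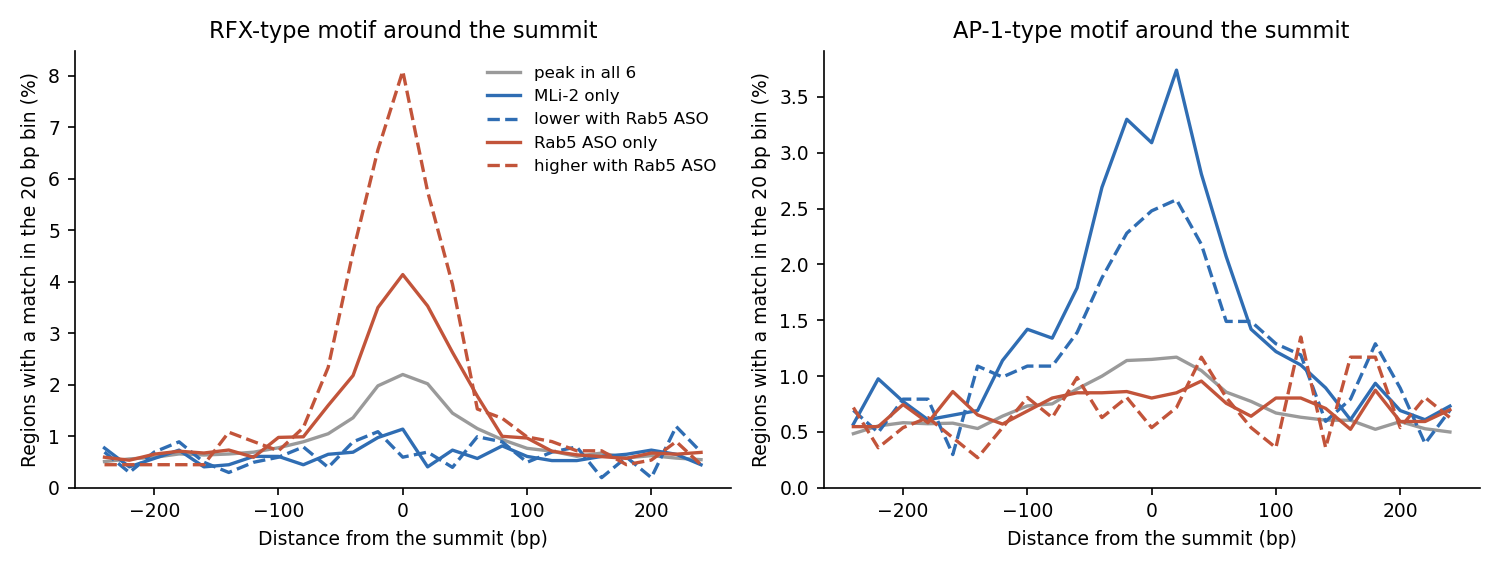
Share of regions (%) with a match centred in each 20 bp bin, by distance from the summit (bp), for the RFX-type motif (left) and the AP-1-type motif (right). Solid lines are regions called in 3 against 0 and the regions in all 6, dashed lines are regions whose height rose or fell with the Rab5 ASO, and the lines of the Rab5 ASO side peak at the summit on the left and those of the MLi-2 side on the right.

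The strongest Rab5 ASO only regions lay in introns or between genes, and the latter are named by the nearest protein-coding start site. By mean percentile of fold within the list those described here, among the highest, were at Atxn7l3b, Zmym5, Picalm, Med14, Map3k5, Iqcj, Sptssb, Stat4 and Lama3. Of these 9, 5 held GTTGCNA and 3 held TGANTCA. The region near Atxn7l3b (chr10:112863913-112864170) stood at the 95.6th, 84.5th and 94.5th percentile in the 3 Rab5 ASO libraries and at the 29.3rd in 1 PBS library. The region near Picalm, whose product is a clathrin assembly protein of endocytosis, stood at 94.0, 89.8 and 85.3, and at 48.0 in 1 PBS and 8.55 in 1 PFF library. The intronic region of Map3k5, the stress-activated kinase ASK1, stood at 87.8, 84.5 and 89.7.

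These values place the sites among the upper peaks of every Rab5 ASO list, with no peak in any MLi-2 list. The region near Stat4 (chr1:51964805-51965022), at 87.1, 81.3 and 85.9, had no peak in any PBS or PFF library either. Sptssb, a subunit of serine palmitoyltransferase, had an intronic region (chr3:69827248-69827568) with a peak in all 6 PBS and PFF libraries at 29.3 to 51.5. Promoters were lower in the order. The protein-coding ones with the highest percentiles were at Lars (77.0, 80.8 and 85.0), Clec16a (78.1, 72.4 and 87.1), Adss (79.3, 66.1 and 79.0), Tusc3 (81.8, 79.8 and 57.6) and Tgfbr3 (69.7, 73.9 and 68.2). Clec16a acts in endosomal and mitochondrial turnover, and its promoter also had a peak in 3 PFF libraries and 1 PBS library. Adss and Tusc3 had none in either group.

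The strongest MLi-2 only regions were at Wdr95, Tbl1xr1, Prim2, Rgs21, Hey1, Lpin1, Insr, Triml1, Gab2 and Frem1, of which 5 held TGANTCA and 0 held GTTGCNA. All 10 had a peak in every PBS and every PFF library, whereas 1 of the 9 named Rab5 ASO only regions did. The intronic region of Wdr95 (chr5:149567058-149567378) stood at 85.4, 82.7 and 79.3 in the MLi-2 libraries, at 63.6 to 84.5 in PBS and at 76.3 to 86.0 in PFF. The region nearest Tbl1xr1, which encodes a subunit of the NCoR corepressor complex, stood at 82.0, 73.0 and 81.5. The region near Hey1 (chr3:8642025-8642365), a Notch target repressor, stood at 69.3, 79.9 and 83.3. That in an intron of the insulin receptor gene Insr (chr8:3237414-3237666) stood at 68.0, 73.0 and 82.4, and at 21.1 to 40.4 in PFF. The strongest protein-coding promoters were an internal start site of Rapgef4, a cAMP-activated exchange factor (65.1, 76.3 and 71.3), and Epb41l5 (60.3, 48.4 and 62.2), followed by Zfp607a, Pde4d and Smyd3 with means of 55.2 to 56.0.

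The genes with most Rab5 ASO only regions were long neuronal genes. Opcml and Ntm, neighbouring genes of the IgLON adhesion family on chromosome 9, held 17 of 188 and 16 of 167 regions, and Rbfox1, a neuronal splicing factor, 17 of 187. Csmd1 held 16 of 193 and the teneurin gene Tenm2 16 of 173. These are 8.29 to 9.58% of the regions in each gene, beside 3.13% of the 140495 regions in all protein-coding genes, and the MLi-2 only regions in them numbered 0 to 3. Genes of either direction were picked by their number of such regions, so a share above that of all genes is favoured by the choice. Of all intronic regions, 4.01% were Rab5 ASO only. All 17 regions of Rbfox1 and all 16 of Ntm and of Tenm2 were intronic, and the mean percentile of a region over the 3 libraries ran from 12.2 to 77.8 over the 5 genes. For the MLi-2 only regions the leading gene models were Gm20388 (9 of 853) and Fgfr2 (7 of 474), both very long models that span other genes, then Syn3 (5 of 80), which encodes synapsin III, Atxn1 (4 of 100) and Dock9 (4 of 58). Pde4d, Ldlrad4, Rora and Tbc1d22a also had 4. Several of these held more Rab5 ASO only regions than MLi-2 only ones, with 13 in Gm20388, 11 in Fgfr2, 5 in Atxn1 and 11 in Pde4d, against 1 in Syn3 and 0 in Dock9. Beside 1.08% of regions in all protein-coding genes, Gm20388 had 1.06%, Fgfr2 1.48%, Syn3 6.25% and Dock9 6.90%. In all, 2908 of 17841 genes held a Rab5 ASO only region, 1386 an MLi-2 only region and 562 both.

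Peak height was compared as a rank, since fold enrichment cannot be compared between lists directly. The ranks of the 80207 shared regions within each list were turned into normal scores, so a shift is in SD of the score. With limma, 1113 regions were higher with the Rab5 ASO (1.39% of those tested) and 1008 lower (1.26%) at an adjusted p under 0.05. All of these calls had groups that did not overlap, as did 12.5% (higher) and 12.9% (lower) of all tested regions. Called shifts were 0.83 or more in size, with a median size of 1.24, and the median over all tested regions was -0.01. Without any 1 of the 6 libraries 0 regions passed (smallest adjusted p = 0.0563 to 0.0887), although 13649 to 15087 had an unadjusted p under 0.05 and no called region changed direction. With the replicate number as a block 0 regions passed as well (smallest adjusted p = 0.0553). When ranks were taken among all peaks of a list, 610 regions were higher and 113 lower (84.4% higher, against 52.5%).

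The height changes shared the positions and motifs of the regions called in 3 against 0. Rises lay within 1000 bp of a start site in 8.98% and falls in 7.24%, against 26.9% of the tested regions, and between genes in 47.3% and 41.5%. GTTGCNA was within 100 bp of the summit in 346 of 1113 rises (31.1%, 95% interval 28.4 to 33.9) and 73 of 1008 falls (7.24%, 5.80 to 9.01), beside 12.6% of tested regions. TGANTCA was in 77 rises (6.92%, 5.57 to 8.56) and 160 falls (15.9%, 13.7 to 18.3), beside 8.65%. Within 50 bp of the summit GTTGCNA was in 26.1% of rises and 3.77% of falls. The closed X-box was in 12 of 1113 rises (1.08%), beside 0.187% of tested regions, and in 0 of 1008 falls, which allows a share of up to 0.298%. In windows of 40 to 50% GC the shares with GTTGCNA were 33.9% and 8.09% and those with TGANTCA 7.29% and 21.3%. Median GC was 44.8% for rises and 50.7% for falls.

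The 10 largest rises were at Gm45871, Zdhhc2, AC166654.1, 1700111E14Rik, Cerkl, Ntm, Nbas, Crhr1, Patl2 and Abcd2, of which 7 held GTTGCNA and 1 held TGANTCA. The region near Gm45871 (chr18:90601831-90602228) stood at the 98.2nd, 98.7th and 99.7th percentile with the Rab5 ASO and the 48.0th, 39.6th and 49.8th with MLi-2 (shift 2.88, SE 0.243, adjusted p = 0.0181). The region near Zdhhc2, a palmitoyltransferase gene, stood at 96.9, 94.3 and 97.3 and at 48.0, 28.7 and 31.7 (shift 2.5, SE 0.224, adjusted p = 0.0181). The region at the start site of 1700111E14Rik, 93914 bp from the start site of Dgki, stood at 95.6, 96.5 and 95.3 and at 30.2, 48.4 and 31.7 (shift 2.42, SE 0.207, adjusted p = 0.0181).

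In each of them the lowest Rab5 ASO library was far above the highest MLi-2 library. The region near Crhr1 (chr11:104066848-104067188), the receptor gene for corticotropin-releasing hormone, stood at 87.0, 85.6 and 88.7 and at 24.3, 21.5 and 23.1. The intronic region of Abcd2 (chr15:91152649-91152915), a peroxisomal fatty acid transporter gene, stood at 98.8, 99.5 and 97.3 and at 73.0, 73.9 and 56.6. Ntm, also among the genes with most Rab5 ASO only regions, rose by 2.24 (SE 0.475, adjusted p = 0.0462) at chr9:29036172-29036414, with MLi-2 libraries spread from 11.5 to 69.3.

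The 10 largest falls were at Hand2, Zhx3, Klhl3, 3110009E18Rik, Gramd3, Fzd10, Gm32171, Gm26897, Rnaseh2b and Cacna1a, of which 1 held TGANTCA and 0 held GTTGCNA. The region nearest Hand2, a bHLH factor gene, stood at 65.6, 6.59 and 9.34 with the Rab5 ASO and 94.1, 91.1 and 94.9 with MLi-2 (shift -2.71, SE 0.402, adjusted p = 0.0282). The region near Fzd10 (chr5:128576020-128576457), a Wnt receptor gene, stood at 33.6, 28.3 and 10.9 and at 83.1, 84.1 and 82.1 (shift -2.11, SE 0.208, adjusted p = 0.0256). The region 6498 bp from the start site of Cacna1a (chr8:84381734-84381942), which encodes the P/Q-type calcium channel, stood at 29.0, 6.59 and 41.7 and at 76.2, 77.0 and 90.5.

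The Rab5 ASO libraries varied more than the MLi-2 libraries at several falls, and at Hand2 a single Rab5 ASO library lay well above the others. The region at the start site of the noncoding gene Gm32171 (chr9:33152207-33152519), for which Ets1 is the nearest protein-coding gene at 455823 bp, stood at 39.4, 28.3 and 9.34 and at 85.9, 79.9 and 83.3. Its PFF values of 32.2 to 51.5 lay nearer the Rab5 ASO libraries and its PBS values of 67.7 to 76.0 nearer the MLi-2 libraries.

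The promoters of the Rab5 genes and of Lrrk2 were examined next. At Rab5a (chr17:53478672-53479859) the Rab5 ASO libraries stood at 92.6, 94.0 and 94.2 and the MLi-2 libraries at 92.2, 91.4 and 92.4 (shift 0.04, SE 0.186, adjusted p = 0.930). At Rab5b (chr10:128695758-128696858) the shift was -0.02 (SE 0.203, adjusted p = 0.969). At Rab5c (chr11:100737935-100738693), not targeted by the ASO, it was -0.32 (SE 0.185, adjusted p = 0.378). The percentile is taken over the whole list and the shift over shared regions, which lets them differ slightly. The signs at Rab5a and Rab5b turned under other settings, and none of the Rab5 promoters passed the test.

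Lrrk2 was the exception among them. Its promoter region (chr15:91672903-91673311) stood at 94.9, 89.8 and 93.5 with the Rab5 ASO and at 99.5, 99.5 and 99.1 with MLi-2, a shift of -1.26 (SE 0.201, adjusted p = 0.0301). The groups did not overlap, and the PBS (97.6 to 99.2) and PFF libraries (97.7 to 99.2) also lay above every Rab5 ASO library. Without any 1 library the adjusted p was 0.0597 to 0.0887, and over all alternatives it ran from 0.00283 to 0.0887, with the sign kept. An internal start site of Lrrk2 (chr15:91738969-91739081) had a Rab5 ASO only region at 39.4, 48.3 and 41.7 that no PBS or PFF library held.

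Calls were rare at promoters. Of 19725 protein-coding promoter regions tested, 78 were higher and 63 lower, with a median shift of -0.03. The 5 largest rises at protein-coding promoters were at Susd2, Gabra3, Efhd2, Spata45 and Kcnmb2. Gabra3, a GABA-A receptor subunit gene (chrX:72656237-72656495), stood at 98.2, 96.5 and 98.2 with the Rab5 ASO and at 65.1, 55.4 and 80.8 with MLi-2 (shift 1.78, SE 0.269, adjusted p = 0.0283). Kcnmb2, the gene of a subunit of BK potassium channels (chr3:31902484-31902766), stood at 85.3, 90.3 and 80.0 and at 36.5, 20.5 and 45. Efhd2 (chr4:141875180-141875438), which encodes a calcium-binding protein, stood at 51.0, 57.8 and 38.7 and at 1.38, 0.502 and 6.24. At these 3 promoters every PBS and PFF library lay below every Rab5 ASO library.

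The 5 largest promoter falls were at Exoc6b, Zbtb20, Nuak1, Folh1 and Acss1. Exoc6b, an exocyst subunit gene (chr6:84892997-84893295), stood at 60.7, 6.59 and 31.0 and at 83.9, 82.3 and 87.4 (shift -1.95, SE 0.345, adjusted p = 0.0328). Zbtb20, a transcriptional repressor gene (chr16:43363797-43364014), stood at 39.4, 39.3 and 57.6 and at 85.9, 86.5 and 90.5. Nuak1 (chr10:84392686-84392976), an AMPK-related kinase gene, stood at 25.3, 9.91 and 11.7 and at 64.2, 68.1 and 68.8. Each fell without overlap, and the PBS and PFF libraries lay above all Rab5 ASO libraries at each of these 3.

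**Figure D4:**
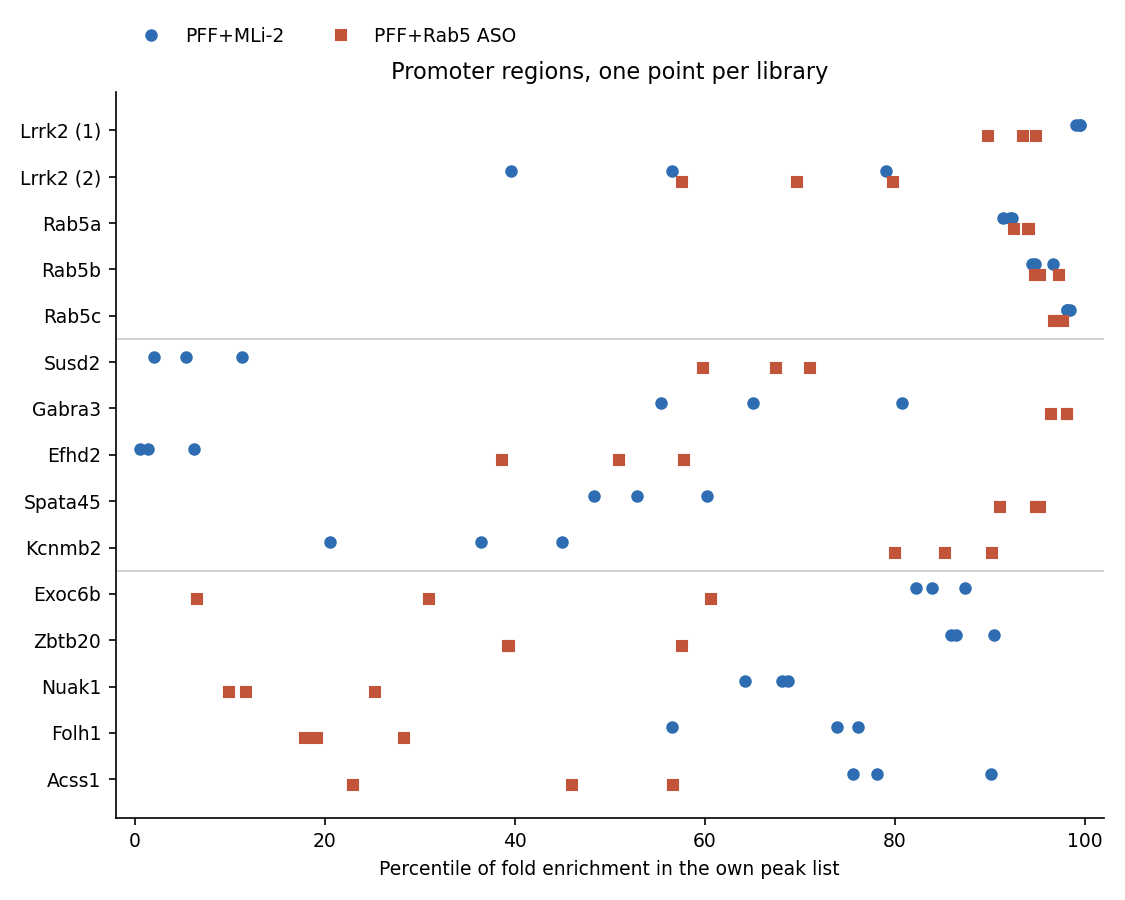
Percentile of fold enrichment within the own peak list (horizontal axis, 0 to 100) at promoter regions, 1 point per library, for Lrrk2 and Rab5 genes (numbers in brackets count regions of a gene), and the 5 largest rises and 5 largest falls at protein-coding promoters. At the first Lrrk2 region the MLi-2 libraries sit at 99.1 to 99.5 and the Rab5 ASO libraries at 89.8 to 94.9, while the Rab5a and Rab5b points overlap or nearly touch.

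Promoter calls in the pathway lists are given beside 78 higher and 63 lower of the 19725 protein-coding promoters. Of the 14 lists, 0 had more than 1 called promoter region in either direction. Genes of the early endosome had 0 calls among 44 promoter regions (median shift -0.04), with Rabgef1, the Rab5 exchange factor gene, highest at 0.72 (SE 0.238, adjusted p = 0.127). The list of LRRK2 and its Rab substrates had 1 call among 32, the fall at Lrrk2 described above (median 0.05). Lysosomal genes had 0 of 60 (median 0.01), and TFEB family and lysosomal signalling genes 0 of 32 (median -0.02). Among 41 autophagy promoter regions the sole call was a fall at Atg9a, the gene of the membrane-spanning autophagy protein. The called region (chr1:75192562-75192736) lies 366 bp from a start site, and the other promoter region of Atg9a was not called. It stood at 10.6, 1.16 and 4.78 with the Rab5 ASO and at 44.7, 41.9 and 46.6 with MLi-2 (shift -1.47, SE 0.222, adjusted p = 0.0283). The PBS libraries stood at 24.6, 43.3 and 3.09, the last within the Rab5 ASO range. Every PFF library lay above every Rab5 ASO library there.

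Other lists held single calls at receptor, guidance and nuclear genes. Gria3, an AMPA receptor subunit gene, was the call among 78 glutamate receptor and postsynaptic promoters, at 78.1, 81.3 and 65.4 and at 34.1, 16.7 and 43.6 (shift 1.26, SE 0.261, adjusted p = 0.0440). Hmgb1, a chromatin protein gene, rose by 0.97 (SE 0.203, adjusted p = 0.0449) among 53 senescence and p53 promoters. Bcl11a, among 73 promoters of cortical projection neuron factors, fell by 0.97 (SE 0.199, adjusted p = 0.0433). Sema3e, among 72 of axon guidance genes, fell by 0.90 (SE 0.195, adjusted p = 0.0473). The Bcl11a and Sema3e calls were each kept under 2 of 15 alternatives. Presynaptic (0 of 65), voltage-gated channel (0 of 74), interferon (0 of 34), activity-regulated (0 of 42) and stress response (0 of 48) promoters had no call. By groups that did not overlap, 0 stress response promoters were higher and 12 of 48 lower, and 1 activity-regulated promoter was higher and 8 of 42 lower, beside 1782 higher and 2195 lower of the 19725 protein-coding promoters. Xbp1 (-0.64, adjusted p = 0.114) and Npas4 (-0.61, adjusted p = 0.166) were among them and missed the threshold.

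Over gene bodies and the 10000 bp upstream, Rab5 ASO only regions made up 4.98% of the 1085 regions of voltage-gated channel genes, led by Kcnb2 with 6. They were 4.81% of the 1352 regions of axon guidance genes (Slit3 8, Sema6d 7, Unc5d 6), 4.61% of the 1257 of glutamate receptor and postsynaptic genes (Dlg2 10) and 4.24% of the 826 of presynaptic genes (Nrxn3 14). The share over all protein-coding genes was 3.13%. Cortical projection neuron factors stood at 3.79%, with 7 regions each in Foxp2 and Sox5. TFEB family and lysosomal signalling genes stood at 4.21% (9 of 214) and early endosome genes at 2.55% (6 of 235). Lysosomal genes stood at 0.889% (2 of 225) and activity-regulated genes at 0.610% (1 of 164). MLi-2 only regions were 1.08% over all protein-coding genes, from 0 of 225 for lysosomal genes, to 1.70% (4 of 235) for early endosome genes and 1.69% (14 of 826) for presynaptic genes, of which Syn3 held 5.

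Genes of RFX and AP-1 factors, a list added after the motifs were seen, showed no called promoter. The promoters of Rfx1, Rfx2, Rfx3, Rfx4, Rfx5 and Rfx7 had shifts of -0.30 to -0.11 with adjusted p-values of 0.404 to 0.825. The largest shift among the AP-1 related genes was 1.06 at a Jdp2 region 362 bp from a start site (adjusted p = 0.104). Its SE was 0.322 and its groups did not overlap. The tested Jdp2 regions that cover a start site shifted by -0.25 (adjusted p = 0.577) and -0.03 (adjusted p = 0.973). These data hold no transcript or protein level of either family.

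The cell type label was checked on promoter peaks of marker genes. All 17 neuron marker genes had a promoter peak in every library of both groups, with a median percentile of 65.8 to 75 in the Rab5 ASO libraries and 78.6 to 80.9 in the MLi-2 libraries. Of their 46 tested promoter regions 1 was called, a rise at the dendritic protein gene Map2. Of 12 GABAergic neuron markers 11 to 12 had one (58.5 to 63.1 against 47.1 to 59.1). All 9 astrocyte (68.1 to 77.5 against 66.4 to 75.1) and all 10 progenitor markers (81.3 to 84.2 against 76.8 to 82.5) also had one. Of 8 microglia markers 1 to 2 had a peak with the Rab5 ASO and 1 to 4 with MLi-2, and of 7 endothelial and mural markers 2 in each library. Of 9 oligodendrocyte lineage markers 5 to 6 had a peak, at low percentiles (median 1.67 to 6.09 and 5.80 to 24.2). The defining microglia genes Aif1, Cx3cr1, Itgam and Spi1 and the endothelial genes Cldn5, Pecam1 and Cdh5 had none. The neuron and oligodendrocyte lineage medians differ between the groups, and their part in the results was not tested.

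The PBS and PFF libraries placed the called regions. Of the Rab5 ASO only regions, 3008 (35.1%) had no peak in any of these 6 libraries and 148 (1.72%) a peak in all 6. Of the MLi-2 only regions, 51 (2.07%) had none and 490 (19.9%) had all 6. The 3 PBS libraries held 39.5%, 14.4% and 19.8% of the Rab5 ASO only regions and the 3 PFF libraries 29.5%, 31.6% and 22.3%, below the 49.4 to 64.1% of all regions in every case. For the MLi-2 only regions the shares were 82.3%, 52.5% and 64.2% in PBS and 73.8%, 62.4% and 57.2% in PFF, above the share of all regions in the same library. Each PBS and PFF library on its own held most MLi-2 only regions and a minority of the Rab5 ASO only regions, although most of the latter had a peak in at least 1 of the 6. The calls were chosen on the other 2 groups, so these shares carry no test.

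Heights gave the same order. Among the 832 rises with a peak in all 12 libraries, the median score was 0.44 with the Rab5 ASO, -0.91 with MLi-2, -0.62 in PBS and -0.55 in PFF. Among the 940 falls it was -1.09, 0.21, -0.08 and -0.21. The PBS mean lay nearer the MLi-2 mean in 83.4% of rises and 86.4% of falls, and the PFF mean in 77.6% and 66.4%. Libraries without either agent were nearer MLi-2 than the Rab5 ASO at most called regions.

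**Figure D5:**
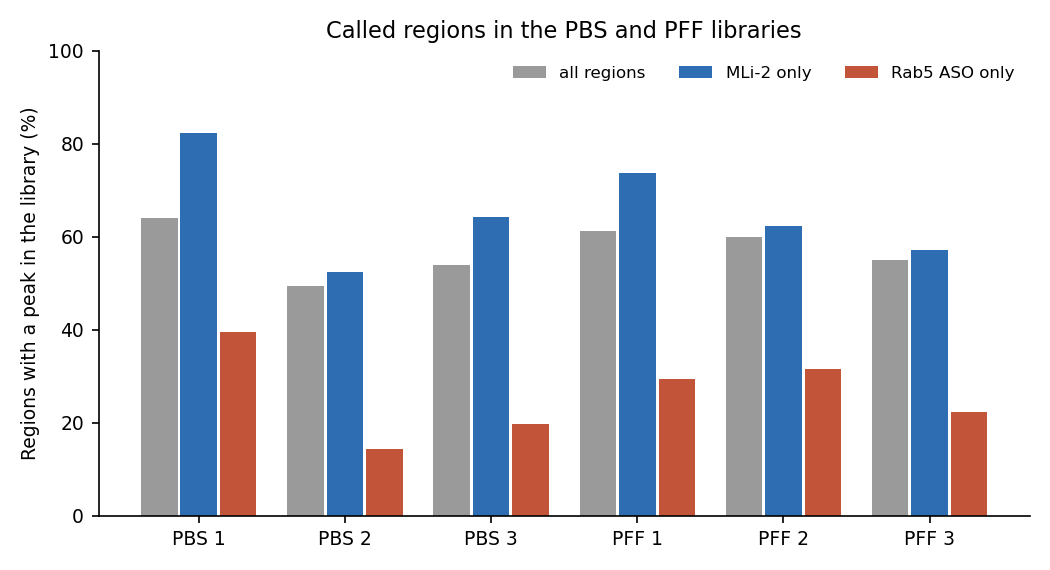
Share of regions (%) with a peak in each PBS and PFF library, for all regions, MLi-2 only regions and Rab5 ASO only regions. In every library the Rab5 ASO only regions (14.4 to 39.5%) fall below all regions and the MLi-2 only regions (52.5 to 82.3%) above them.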

How the data were processed

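Per the submitters' processing notes, the authors used Trim Galore 0.6.7 for trimming, Bowtie2 2.5.1 for alignment (build GRCm38) and MACS2 2.2.7.1 for peak calling, which gave 1 peak list per library. The MACS2 options, duplicate handling and any Tn5 shift are not given in the sources used here, and each would change peak number, width and height. The deposited lists give a fold enrichment (a ratio over local background, from which ranks and percentiles were made), a -log10 p-value and a -log10 q-value per peak, and a deposited score that was not used. The descriptions of the treated libraries name PBS in place of PFF, and the titles and treatment labels were used. Of 954869 peaks in the 6 lists, 783 lay off chromosomes 1 to 19, X and Y and were left out.

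Regions were annotated with GENCODE vM21. Relative depth was the most frequent MACS2 background divided by the smallest peak width. Ranks of fold were turned into normal scores and tested with limma 3.58.1 (lmFit, eBayes, Benjamini-Hochberg) in R 4.3.3, after tests on simulated data. Library values had exact permutation tests over 20 assignments. Named regions were the 10 strongest of each kind, the 5 genes with most called regions, the targeted promoters, and the most shifted promoters overall and per list, apart from some that are not reported here. The members and lists were chosen with earlier results of these data known. No reads were counted here. Other steps used Python 3.11.15, numpy 2.4.6, pandas 2.3.3, scipy 1.17.1, pysam 0.24.0 and matplotlib 3.10.9.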

Additional observations from a re-analysis of the deposited data

How the results depend on the processing

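Counts of regions called in 3 against 0 (8581 Rab5 ASO only, 2458 MLi-2 only) became 6354 and 4703 with equal numbers of top peaks per list, 21192 and 8196 when 2 of 3 against 0 sufficed, and 10828 to 14260 and 3065 to 4552 without 1 library. In windows of 40 to 50% GC, 4.06% and 1.24% of regions were called, with GTTGCNA in 22.4% of Rab5 ASO only and TGANTCA in 24.9% of MLi-2 only regions. With equal numbers of top peaks these motif shares were 21.6% and 16.8%, and the promoter shares 4.60% and 20.8%. Differences between groups in peak number, covered length, widths and depth kept their sign without any 1 library.

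Limma calls (1113 higher, 1008 lower) were 610 and 113 by rank among all peaks of the list, 598 and 635 by -log10 p, 662 and 534 over regions of 1 peak in each list, 2084 and 1710 with trend and robust eBayes, and 1720 and 1465 with cyclic loess. They were 0 and 0 when regions with a peak in 2 or 3 libraries of both groups were tested (20080 regions with an unadjusted p under 0.05), 0 and 0 without any 1 library (13649 to 15087 with an unadjusted p under 0.05), and 0 and 0 with a replicate block (smallest adjusted p = 0.0553, 16696 with an unadjusted p under 0.05), also with the block and the GC trend removed together (0.0605). Without the block, 801 higher and 824 lower were called after removal of the GC trend and 1064 and 890 after removal of the width trend. Deviations of same-numbered libraries had correlations of 0.01 to 0.04, and no source says whether a number marks a shared pregnancy. The cause of these losses was not tested. No called region changed direction in these settings, although the setting of 1 peak per list tested only 1050 of the 2121 calls.

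Among uncalled promoter regions the sign turned for Rab5a (-0.01 to 0.11 without 1 library), Rab5b (0.06 by list rank, 0.08 with the GC trend removed, with or without the block, 0.02 with the width trend removed, -0.14 to 0.06 without 1 library) and the Lrrk2 region at 91781304 (-0.13 to 0.55 without 1 library). The GC, width and motif alternatives were chosen after seeing the data.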
